A study of Mus musculus with 8 samples.

Results

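The 41 genes of the G1/S transition and of DNA replication were described in tumours of the NPcis mouse, a model of the malignant peripheral nerve sheath tumour. They were chosen by name, as genes known to act at the entry into S phase or at the replication fork. Earlier results of these data were known at that choice. Each gene was read from a probe set that the platform annotates to that gene alone. Where a gene had several such probe sets, the one with the highest mean was taken. All 41 had a probe set, among 19938 genes measured. NPcis mice carry mutations of Nf1 and Trp53 in cis on one chromosome, a genotype shared by all groups, and the samples are primary tumours. No source used here gives the age or strain background of the mice. The 4 groups of 2 arrays each had received rapamycin (an inhibitor of mTORC1, 5 mg/kg by intraperitoneal injection), PD-0325901 (an inhibitor of MEK, 1.5 mg/kg per dose by oral gavage), both drugs (the combination) or vehicle. Treatment lasted 14 hours. The labels do not state that the 2 arrays of a group come from separate animals, so the p-values measure only the spread between these samples.

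A cell enters S phase when cyclin-dependent kinases inactivate the retinoblastoma protein and free E2F transcription factors, which then drive the genes of the replication machinery. Origins are first licensed by loading of the MCM helicase with the help of the origin recognition complex, Cdc6 and Cdt1. The helicase is then activated by Cdc45 and the GINS complex, and polymerases with their sliding clamp copy the strands. ERK signalling, which loss of Nf1 raises, feeds into this step through the cyclins, and mTORC1 links it to cell growth. Transcripts of the group are widely used as a readout of cycling cells in a tissue.

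Some of the promoters of these genes hold a sequence word of E2F. The window of RefSeq (GRCm38.p6) from 250 bases before to 50 after a gene's start was searched on both strands for TTTCCCGC, TTTGGCGC, TTTCGCGC and TTTGCCGC, words bound by E2F proteins. A window was given for 35 of the 41 genes, and 15 of these 35 (42.9%) had such a word in a window, against 2.6% of all 27025 genes with a window. Counted by window, the shares were 36.6% of 41 windows and 2.3% of 32851 windows. Words that overlap one another were counted once per gene. The word was most frequent among origin licensing genes, where 7 of 9 genes with a window had it. The CCAAT box, a common promoter element that is not particular to the cell cycle, was in a window of 65.7% of the 35 genes and of 41.1% of all genes. A match describes these letters only, and no binding was measured here. The comparison with all genes was not matched for base composition.

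The next lines show the windows of 4 genes described below that hold a word, in capitals, and of Cdc45, which holds none of the 4 words. They are Dtl at chr1:191575495-191575794 (minus strand), Cdc6 at chr11:98907901-98908200 (plus strand), Pold1 at chr7:44548766-44549065 (minus strand), Mcm3 at chr1:20820263-20820562 (minus strand) and Cdc45 at chr16:18811923-18812222 (minus strand). Each is written 5′ to 3′ on the strand of the gene. In Dtl the word begins 8 bases before the start of the gene, and in Mcm3 one word lies on each strand after the start.
Dtl: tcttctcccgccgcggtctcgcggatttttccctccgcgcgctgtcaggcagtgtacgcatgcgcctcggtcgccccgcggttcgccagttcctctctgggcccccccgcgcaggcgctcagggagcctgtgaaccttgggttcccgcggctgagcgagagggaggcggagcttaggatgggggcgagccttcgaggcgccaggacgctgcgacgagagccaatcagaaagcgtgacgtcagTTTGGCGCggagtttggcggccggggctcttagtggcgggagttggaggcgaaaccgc
Cdc6: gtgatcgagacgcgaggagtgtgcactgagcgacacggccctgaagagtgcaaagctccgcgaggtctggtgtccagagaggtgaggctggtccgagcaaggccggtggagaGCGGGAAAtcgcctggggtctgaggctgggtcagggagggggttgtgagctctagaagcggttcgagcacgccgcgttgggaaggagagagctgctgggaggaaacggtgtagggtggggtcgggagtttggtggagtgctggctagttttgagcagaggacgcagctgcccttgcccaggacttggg
Pold1: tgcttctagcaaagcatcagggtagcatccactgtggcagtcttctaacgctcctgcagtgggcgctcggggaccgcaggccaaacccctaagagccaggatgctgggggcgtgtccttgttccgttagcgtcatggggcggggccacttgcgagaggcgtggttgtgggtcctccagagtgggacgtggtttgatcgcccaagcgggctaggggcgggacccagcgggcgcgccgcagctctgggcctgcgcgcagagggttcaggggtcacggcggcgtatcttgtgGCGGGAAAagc
Mcm3: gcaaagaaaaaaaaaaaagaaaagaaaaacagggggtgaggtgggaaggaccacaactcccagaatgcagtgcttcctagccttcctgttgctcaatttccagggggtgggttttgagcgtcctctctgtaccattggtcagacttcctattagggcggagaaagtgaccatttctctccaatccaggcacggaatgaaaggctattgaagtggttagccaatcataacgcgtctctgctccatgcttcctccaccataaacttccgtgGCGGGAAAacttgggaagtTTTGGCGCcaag
Cdc45: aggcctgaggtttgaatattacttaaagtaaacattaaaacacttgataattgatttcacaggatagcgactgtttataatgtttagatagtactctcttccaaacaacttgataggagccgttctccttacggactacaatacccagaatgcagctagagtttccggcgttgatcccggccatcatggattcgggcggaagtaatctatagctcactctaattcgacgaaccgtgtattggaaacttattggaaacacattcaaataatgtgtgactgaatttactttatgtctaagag

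The whole table sets the precision. Values are log2 levels as deposited, and no depth or detection call comes with them, so the number of arrays limits what can be told. The correlation between arrays over all probe sets was 0.961 for the rapamycin pair, 0.986 for the PD-0325901 pair, 0.979 for the combination pair and 0.971 for the vehicle pair. In the limma fit of 4 group means (two-sided, Benjamini-Hochberg adjustment over 19938 genes), 0 genes passed an adjusted p of 0.05 in each of the 8 comparisons described below. Differences are therefore given as values with the standard error (SE) of the fit, and unadjusted p-values are read against the share of all genes that reach them. The tissue is bulk tumour, in which fewer cycling cells and less RNA per cell cannot be told apart. Of 8 Schwann lineage markers 6 were measured, and their mean centred level lay between -0.06 and 0.10 on all arrays. Among them Sox10, a transcription factor that defines the lineage, measured 7.85 to 8.17, and S100b 7.12 to 7.32. No source used here says whether these values lie above background.

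With both drugs, every one of the 41 genes had a lower mean than with vehicle, as 53.7% of all genes did. The median log2 difference was -0.55, a fold of 0.68, with a range from -1.38 to -0.22, while the median over all genes was -0.02. For 38 of the 41 genes both combination arrays lay below both vehicle arrays, an arrangement found in 22.3% of all genes. The 3 exceptions were E2f2, Cdt1 and Gins2. At an unadjusted p under 0.05, 9 of 41 members were lower (Ccne1, Ung, Chaf1b, Cdc45, Ccne2, Clspn, Pcna, Rfc5 and Rrm1), where 4.0% of all genes were lower at that p. No member passed the adjusted threshold (0 of 41, and 0% of all genes), the smallest adjusted p being 0.3588 for Ccne1. The count of 9 used the spread of all 4 groups. It was 24 in a limma fit of the combination and vehicle arrays alone (4.40% of all genes lower). Leaving out 1 array at a time moved it in both directions, and the median difference then lay between -0.63 and -0.49. The 41 genes vary together, so these counts and those below are not counts of independent observations. Rapamycin arrays 1 and 2, of the same treatment, also differed in the same direction for 41 of 41 genes. The members' mean centred log2 value had a pooled standard deviation of 0.32 between replicates.

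With PD-0325901 alone, all 41 means were again below vehicle (53.8% of all genes), with a median difference of -0.37 (fold 0.77, range -1.05 to -0.06). The median was -0.53 with PD-0325901 array 1 left out and -0.17 with array 2 left out. Both PD-0325901 arrays lay below both vehicle arrays for 25 of 41 genes, an arrangement of 20.9% of all genes. At an unadjusted p under 0.05, 1 of 41 members (Dtl) was lower, a share near the 2.38% of all genes. That count was 5 in a fit of these 2 groups alone (3.75% of all genes lower). It was 2 with the array number as a replicate block (2.21% of all genes). With 1 array left out it moved in both directions. Taken singly, PD-0325901 array 1 lay below both vehicle arrays for 25 genes (31.1% of all genes) and above both for 4, and PD-0325901 array 2 lay below both for 38 (37.4% of all genes). The adjusted count was 0 of 41 (0% of all genes).

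With rapamycin alone, the 41 means were also below vehicle (54.1% of all genes), with a median difference of -0.43 (fold 0.74, range -0.90 to -0.04), but the 2 arrays lay far apart. Rapamycin array 1 lay below both vehicle arrays for 41 of 41 genes (39.5% of all genes), with a median of -0.85 against the vehicle mean. Rapamycin array 2 had a median of -0.04, with 17 genes below both vehicle arrays, a share near the 35.6% of all genes, and 13 above both. Both rapamycin arrays lay below both vehicle arrays for 17 genes (17.9% of all genes). At an unadjusted p under 0.05, 2 members (Ccne1 and Clspn) were lower, where 2.15% of all genes were, and the adjusted count was 0 of 41 (0% of all genes). Without rapamycin array 2, Pola1 had a difference of -1.69 from vehicle. That fit holds 1 rapamycin array, which is assumed to vary like the other groups, and on the array left out Pola1 lay above both vehicle arrays. The unadjusted count was 6 after quantile normalization (2.56% of all genes lower). Among genes whose mean lay above the median gene it was 1 of 31 (1.98% of such genes). Leaving out 1 array at a time moved it in both directions. The median was -0.04 when rapamycin array 1 was dropped and -0.85 when array 2 was. The 3 comparisons share the vehicle arrays and are not independent of one another.

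**Figure D1:**
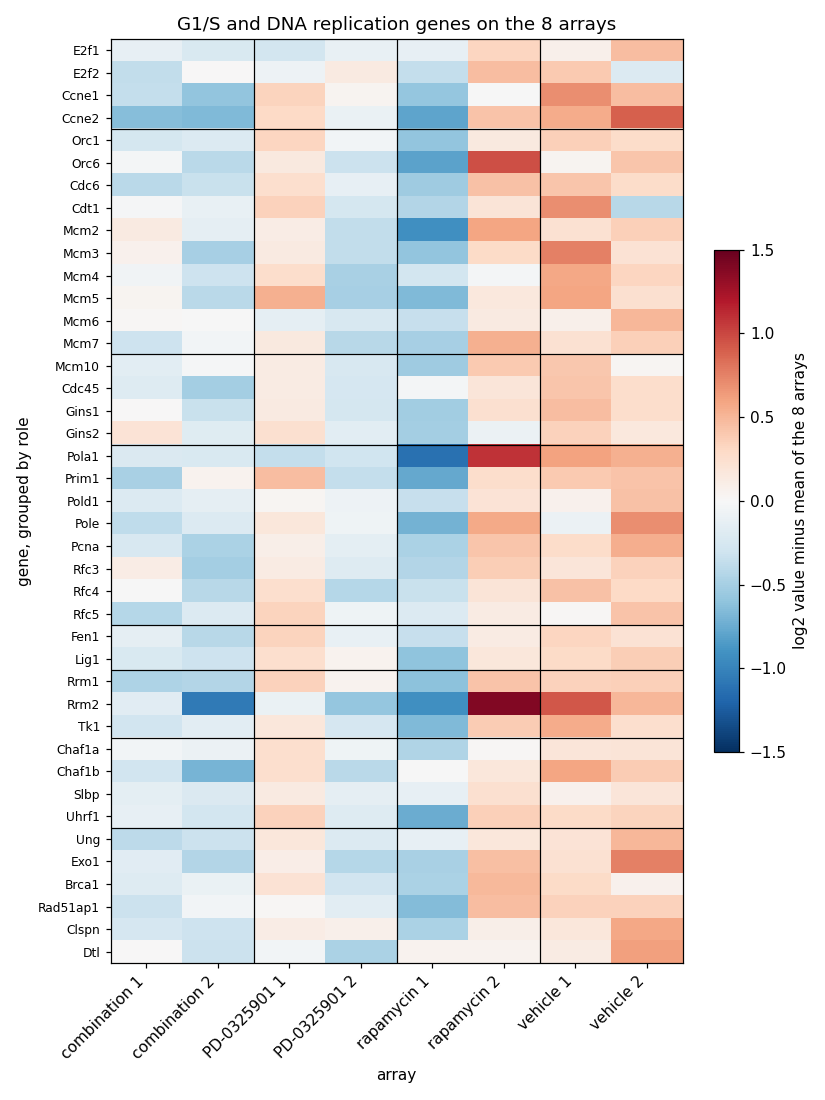
Heat map of the 41 genes (rows, grouped by role) on the 8 arrays (columns, 2 per group), coloured by the log2 value minus the gene's mean over the 8 arrays. The combination columns are mostly blue and the vehicle columns mostly red, and the 2 rapamycin columns differ from each other, with array 1 below array 2 in all 41 rows.

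The regulators hold the largest difference of the combination, that of Ccne2, and their median was -0.75 there, -0.42 with PD-0325901 and -0.52 with rapamycin. Ccne2 encodes cyclin E2, a partner of Cdk2 at the start of S phase. It measured 7.70 and 7.68 on the combination arrays, 8.64 and 8.24 on the PD-0325901 arrays and 7.55 and 8.77 on the rapamycin arrays, against 8.90 and 9.23 on the vehicle arrays. All 6 arrays with a drug were below both vehicle arrays, and the combination pair lay below the PD-0325901 pair. The difference from vehicle was -1.38 in the combination (SE 0.39, unadjusted p = 0.0127, limma adjusted p = 0.4372), -0.62 with PD-0325901 (SE 0.39) and -0.90 with rapamycin (SE 0.39). Ccne1, the other cyclin E and chosen after its values were seen, measured 8.50 and 8.26 with the combination, 9.19 and 8.90 with PD-0325901 and 8.28 and 8.85 with rapamycin, against 9.55 and 9.32 with vehicle. Here too all arrays with a drug were below both vehicle arrays. Its difference from vehicle was -1.06 in the combination (SE 0.22, unadjusted p = 0.0032, limma adjusted p = 0.3588), -0.88 with rapamycin (SE 0.22) and -0.39 with PD-0325901 (SE 0.22).

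Of the E2F activators, E2f1, the first described of these factors, measured 9.01 and 8.90 on the combination arrays, 8.85 and 9.02 on the PD-0325901 arrays and 9.0 and 9.45 on the rapamycin arrays, against 9.20 and 9.59 on the vehicle arrays. The 4 arrays with PD-0325901 lay below both vehicle arrays, and rapamycin array 2 lay between them. Its difference was -0.44 in the combination and -0.46 with PD-0325901 (SE 0.20 each), and -0.17 with rapamycin (SE 0.20). The combination difference was -0.63 or -0.25 with vehicle array 1 or 2 left out. E2f2, a close relative, had the smallest differences of the group with either single drug. It measured 7.79 and 8.16 with the combination, 8.08 and 8.29 with PD-0325901 and 7.80 and 8.62 with rapamycin, against 8.55 and 7.95 with vehicle. The groups overlapped throughout, with differences of -0.27 (SE 0.33), -0.06 (SE 0.33) and -0.04 (SE 0.33) from vehicle with the combination, PD-0325901 and rapamycin.

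Origin licensing genes, 10 in number, had a median difference of -0.51 in the combination, -0.41 with PD-0325901 and -0.42 with rapamycin. The arrays did not overlap for 9, 6 and 3 of the 10 genes in these comparisons, all with the drug lower. Over all genes the shares were 22.3%, 20.9% and 17.9%. Mcm4, a subunit of the helicase ring, measured 9.90 and 9.64 with the combination, 10.21 and 9.46 with PD-0325901 and 9.68 and 9.92 with rapamycin, against 10.53 and 10.27 with vehicle. All 6 arrays with a drug lay below both vehicle arrays. Its differences were -0.63, -0.56 and -0.60 (SE 0.27 each), so the 3 treatments were within 1 SE of each other. Mcm3, another subunit, measured 9.50 and 8.94 with the combination, 9.57 and 9.07 with PD-0325901 and 8.85 and 9.72 with rapamycin, against 10.19 and 9.66 with vehicle. Only rapamycin array 2 overlapped the vehicle pair, and the differences were -0.71, -0.60 and -0.64 (SE 0.38 each). The first was -0.45 with vehicle array 1 left out and -0.43 with combination array 2 left out.

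Cdc6, the loader of the helicase, measured 7.58 and 7.65 with the combination, 8.23 and 7.86 with PD-0325901 and 7.45 and 8.42 with rapamycin, against 8.39 and 8.25 with vehicle. The combination pair was lower than both PD-0325901 arrays, and the rapamycin arrays lay on either side of the vehicle pair. Its differences were -0.70, -0.27 and -0.38 (SE 0.32 each). Cdt1, the partner of Cdc6 in loading, had the smallest difference of all members in the combination, -0.22 (SE 0.42). It measured 9.38 and 9.29 with the combination, 9.75 and 9.14 with PD-0325901 and 8.96 and 9.60 with rapamycin, against 10.10 and 8.99 with vehicle. The vehicle arrays themselves were farther apart than any treated pair, and without vehicle array 1 the combination difference was 0.34. The other helicase subunits Mcm2, Mcm5, Mcm6 and Mcm7 had combination differences from -0.60 (Mcm5) to -0.28 (Mcm6). Orc1 and Orc6, of the origin recognition complex, had differences of -0.55 (SE 0.25) and -0.45 (SE 0.55) there.

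Among the 4 genes of origin firing, Cdc45, a part of the active helicase, was separated most clearly. It measured 8.84 and 8.53 on the combination arrays, 9.16 and 8.78 on the PD-0325901 arrays and 9.01 and 9.22 on the rapamycin arrays, against 9.45 and 9.30 on the vehicle arrays. All arrays with a drug were below vehicle, and both combination arrays were also below both rapamycin arrays. The difference was -0.69 in the combination (SE 0.18, unadjusted p = 0.0094, limma adjusted p = 0.4204), -0.40 with PD-0325901 (SE 0.18) and -0.26 with rapamycin (SE 0.18). Gins1, a subunit of the GINS complex, measured 7.49 and 7.15 with the combination, 7.62 and 7.22 with PD-0325901 and 6.96 and 7.72 with rapamycin, against 7.94 and 7.74 with vehicle. Its differences were -0.52, -0.42 and -0.50 (SE 0.29 each), with no overlap of any treated pair and the vehicle pair. Gins2, of the same complex, had -0.24 in the combination with overlapping arrays (SE 0.22), but -0.54 with rapamycin (SE 0.22) without overlap. Mcm10, which helps to activate the helicase, had differences of -0.31, -0.27 and -0.29 (SE 0.32 each).

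For the 8 polymerase, clamp and clamp loader genes, the combination arrays were below the vehicle arrays in every case (22.3% of all genes). The median difference was -0.59. With PD-0325901 and rapamycin the medians were -0.33 and -0.41. There 5 and 2 genes had arrays below vehicle without overlap (20.9% and 17.9% of all genes). Pcna, the sliding clamp, measured 10.65 and 10.42 with the combination, 10.98 and 10.74 with PD-0325901 and 10.42 and 11.31 with rapamycin, against 11.17 and 11.44 with vehicle. The combination pair lay below the PD-0325901 pair, which lay below the vehicle pair, while rapamycin array 1 was as low as the lower combination array and rapamycin array 2 lay within the vehicle range. Its combination difference was -0.77 (SE 0.30, unadjusted p = 0.0414, limma adjusted p = 0.5267). The second probe set of Pcna gave -0.77 as well, but it read nearly the same on every array and so adds little. Rfc4, a subunit of the clamp loader, measured 9.80 and 9.40 with the combination, 10.06 and 9.38 with PD-0325901 and 9.48 and 10.01 with rapamycin, against 10.25 and 10.11 with vehicle, with a combination difference of -0.58 (SE 0.29), or -0.38 with combination array 2 left out. All 6 arrays with a drug were below vehicle.

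Pold1, the catalytic subunit of polymerase delta, measured 8.86 and 8.93 with the combination, 9.09 and 8.98 with PD-0325901 and 8.72 and 9.27 with rapamycin, against 9.13 and 9.50 with vehicle. Its combination difference was -0.42 (SE 0.21), or -0.24 with vehicle array 2 left out, with rapamycin array 2 the one treated array inside the vehicle range. Pola1 is the catalytic subunit of the polymerase that makes the primers. It measured 8.68 and 8.66 with the combination, 8.54 and 8.59 with PD-0325901 and 7.77 and 9.98 with rapamycin, against 9.50 and 9.42 with vehicle. The 2 rapamycin arrays were thus the lowest and the highest of the 8, while the 4 arrays with PD-0325901 lay close together. The other members of this role, Prim1, Pole, Rfc3 and Rfc5, had combination differences between -0.63 (Prim1) and -0.46 (Rfc3).

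On the lagging strand, Fen1, the flap nuclease, measured 7.98 and 7.70 with the combination, 8.44 and 8.00 with PD-0325901 and 7.77 and 8.24 with rapamycin, against 8.43 and 8.33 with vehicle. Lig1, the ligase that seals the fragments, measured 9.16 and 9.08 with the combination, 9.64 and 9.44 with PD-0325901 and 8.79 and 9.56 with rapamycin, against 9.68 and 9.76 with vehicle. In both genes the combination and rapamycin arrays were below vehicle, whereas PD-0325901 array 1 was at or near the vehicle level. The combination differences were -0.54 for Fen1 (SE 0.22) and -0.59 for Lig1 (SE 0.25), against -0.16 (SE 0.22) and -0.18 (SE 0.25) with PD-0325901 alone.

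The 3 genes of nucleotide supply had the most negative median of all roles in the combination, -0.80, with -0.44 for PD-0325901 and -0.48 for rapamycin. Rrm2, the regulated subunit of ribonucleotide reductase, measured 9.67 and 8.78 with the combination, 9.74 and 9.26 with PD-0325901 and 8.92 and 11.22 with rapamycin, against 10.77 and 10.33 with vehicle. The 4 arrays with PD-0325901 were below vehicle, and the rapamycin arrays lay far apart, one below and one above the vehicle pair. The differences were -1.32 in the combination, -1.05 with PD-0325901 and -0.48 with rapamycin, each with an SE of 0.74, and the first was -0.88 with combination array 2 left out. Rrm1, the large subunit, measured 10.06 and 10.09 with the combination, 10.87 and 10.58 with PD-0325901 and 9.91 and 10.95 with rapamycin, against 10.87 and 10.89 with vehicle. The combination pair was below all PD-0325901 and vehicle arrays, with a difference from vehicle of -0.80 (SE 0.32, unadjusted p = 0.0481, limma adjusted p = 0.5447), and PD-0325901 alone gave -0.15 (SE 0.32). Tk1, thymidine kinase, had -0.63 in the combination (SE 0.35), and -0.64 from its second probe set.

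The 4 chromatin assembly genes had medians of -0.41, -0.17 and -0.40 with the combination, PD-0325901 and rapamycin. Chaf1b, a subunit of the factor that assembles nucleosomes behind the fork, measured 8.80 and 8.39 with the combination, 9.34 and 8.68 with PD-0325901 and 9.08 and 9.25 with rapamycin, against 9.67 and 9.46 with vehicle. All arrays with a drug were below vehicle, and both combination arrays were below both rapamycin arrays. Its combination difference was -0.97 (SE 0.25, unadjusted p = 0.0087, limma adjusted p = 0.4078). Slbp, which binds the stem-loop of histone transcripts, had the narrowest range over the 8 arrays of all members, 0.47. It measured 9.12 and 9.05 with the combination, 9.41 and 9.14 with PD-0325901 and 9.15 and 9.51 with rapamycin, against 9.34 and 9.45 with vehicle. The combination difference was -0.32 (SE 0.16) and -0.33 from its second probe set. With PD-0325901 alone the 2 probe sets gave -0.12 and -0.28. Chaf1a, the partner of Chaf1b, had -0.26 (SE 0.18) in the combination, and Uhrf1, which brings the maintenance methyltransferase to new DNA, -0.51 (SE 0.37).

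The 6 repair and checkpoint genes had a median of -0.60 in the combination, -0.39 with PD-0325901 and -0.39 with rapamycin. Ung, the uracil glycosylase that clears uracil from new DNA, was lowest on the 2 combination arrays. It measured 7.77 and 7.84 with the combination, 8.33 and 7.96 with PD-0325901 and 8.04 and 8.33 with rapamycin, against 8.37 and 8.66 with vehicle. The difference from vehicle was -0.72 in the combination (SE 0.18, unadjusted p = 0.0077, limma adjusted p = 0.4039), -0.37 with PD-0325901 (SE 0.18) and -0.33 with rapamycin (SE 0.18). Dtl, the substrate receptor that has Cdt1 degraded in S phase, measured 9.11 and 8.78 with the combination, 9.06 and 8.63 with PD-0325901 and 9.16 and 9.16 with rapamycin, against 9.23 and 9.72 with vehicle. All 6 arrays with a drug lay below both vehicle arrays, and the difference with PD-0325901 was -0.63 (SE 0.23, unadjusted p = 0.0331, limma adjusted p = 0.7942). In the combination it was -0.53 (SE 0.23), or -0.29 with vehicle array 2 left out. Clspn, the adaptor of the replication checkpoint, had a combination difference of -0.66 (SE 0.22), and Exo1, a nuclease of mismatch repair, one of -0.80 (SE 0.36). Brca1 and Rad51ap1, both of homologous recombination, had -0.32 (SE 0.33) and -0.52 (SE 0.35).

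**Figure D2:**
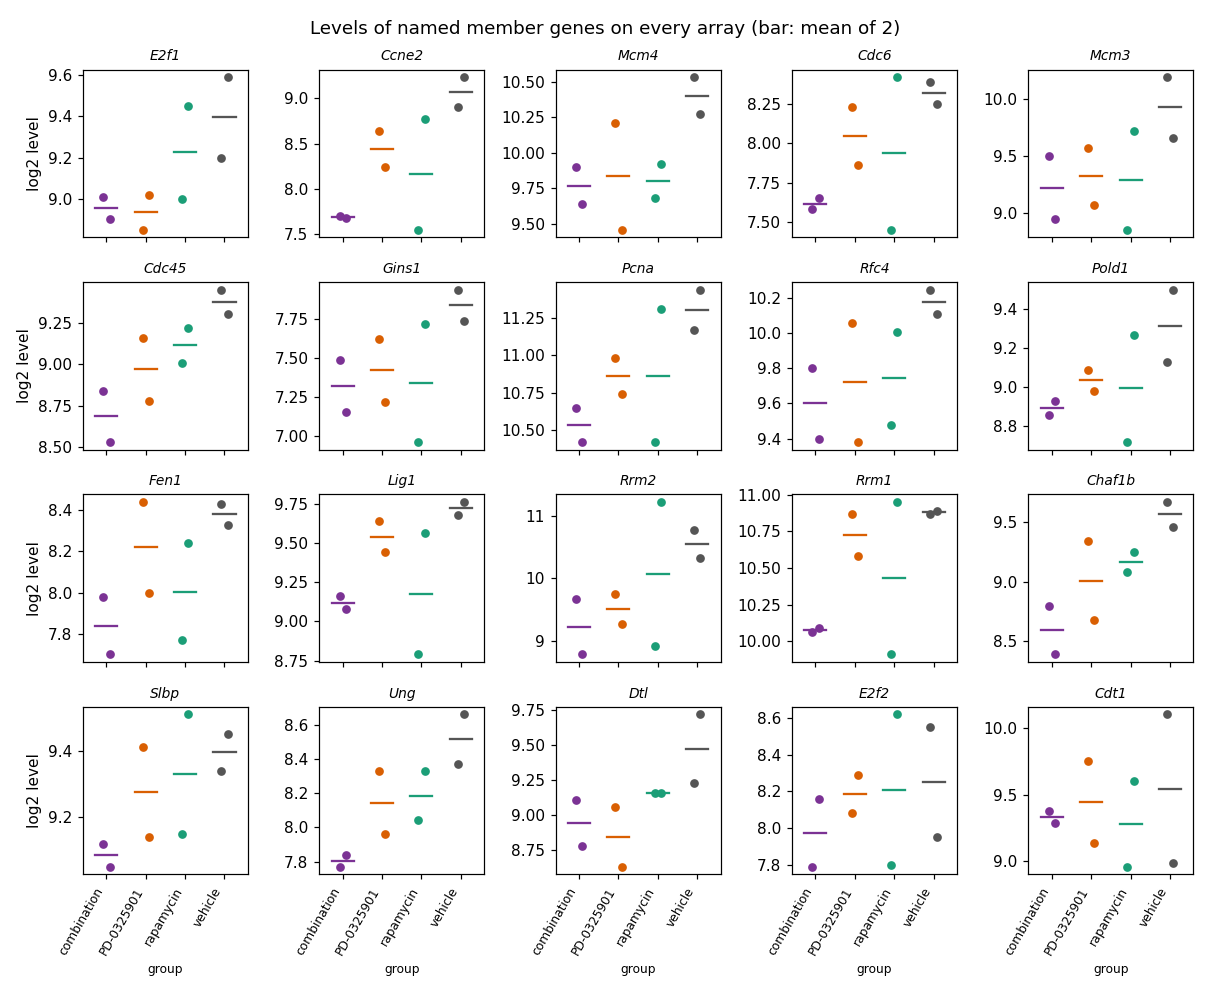
Log2 level of 20 named genes on every array (points) with the mean of each group's 2 arrays (bars), groups from left to right being combination, PD-0325901, rapamycin and vehicle; each panel has its own axis. The vehicle mean is the highest in every panel, but in several panels a rapamycin point reaches or passes a vehicle point. The combination pair ranges from close together for Ccne2 (7.70 and 7.68) to wide apart for Rrm2 (9.67 and 8.78). In many panels the rapamycin points are wide apart, most of all for Rrm2 (8.92 and 11.22).

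**Figure D3:**
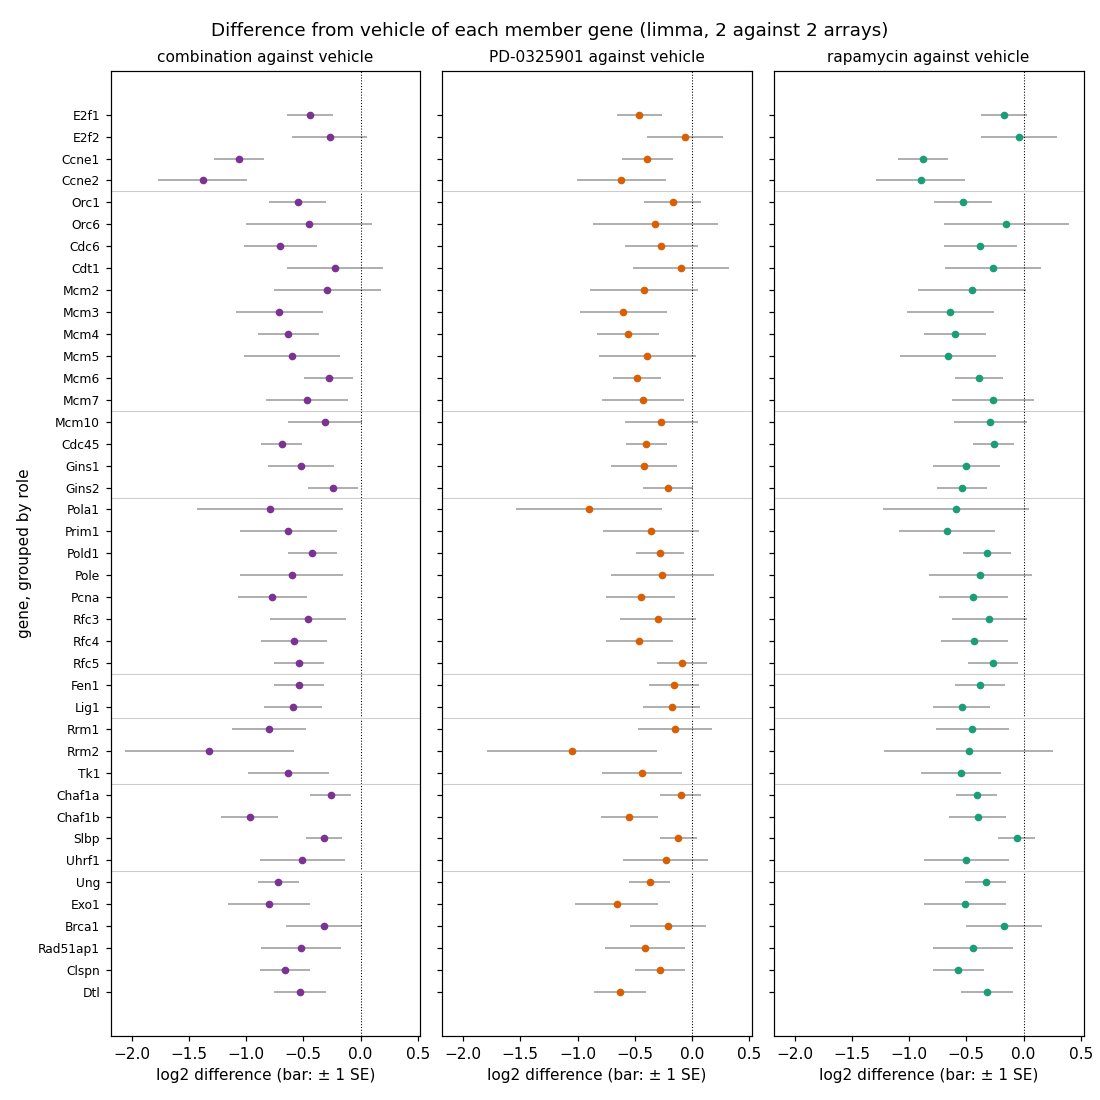
Log2 difference from vehicle of each of the 41 genes in the combination, PD-0325901 and rapamycin groups (points, 2 against 2 arrays) with 1 SE of the limma fit (bars). All points lie left of 0, from -1.38 to -0.22 in the combination, -1.05 to -0.06 with PD-0325901 and -0.90 to -0.04 with rapamycin.

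To ask what each drug adds to the other, the combination was set against the single drugs. Against PD-0325901 the median difference was -0.18, with 36 of 41 genes lower (52.1% of all genes) and arrays without overlap for 14 lower and 2 higher genes (18.2% and 16.3% of all genes). Ccne1 was the single member at an unadjusted p under 0.05 (1.27% of all genes were lower at that p), with -0.67 (SE 0.22, unadjusted p = 0.0247, limma adjusted p = 0.9998). Rfc5 (-0.45, SE 0.22), Rrm1 (-0.65, SE 0.32) and Ccne2 (-0.75, SE 0.39) had the next smallest p, and Mcm6 and Pola1 were the 2 genes with higher arrays, by 0.20 (SE 0.21) and 0.11 (SE 0.64). Against rapamycin the median was -0.16, with 34 of 41 lower (51.7% of all genes). For 5 of 41 genes (Cdc45, Chaf1b, Slbp, Ung and Dtl) both combination arrays lay below both rapamycin arrays. That share is not above the 15.1% of all genes with this arrangement. No member reached an unadjusted p under 0.05 (0 of 41, against 2.71% of all genes), and Cdc45 had the smallest, with -0.43 (SE 0.18, unadjusted p = 0.0565, limma adjusted p = 0.7603). With rapamycin array 1 or 2 left out the median was -0.51 or 0.30, so its direction turned with the choice of 1 array. Against PD-0325901 it was -0.02 or -0.41 with PD-0325901 array 1 or 2 left out, and -0.27 with combination array 1 left out. In both comparisons the adjusted count was 0 of 41 (0% of all genes).

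The main effect of PD-0325901, the mean of its difference without and with rapamycin, had a median of -0.24, with 39 of 41 genes lower (54.0% of all genes). At an unadjusted p under 0.05, 5 members were lower (Cdc45, Chaf1b, Ung, Dtl and E2f1), where 4.14% of all genes were lower. Cdc45 had -0.42 (SE 0.13, unadjusted p = 0.0179, limma adjusted p = 0.3937) and Chaf1b -0.56 (SE 0.18, unadjusted p = 0.0199, limma adjusted p = 0.4070). Dtl was the 1 of 41 members whose 4 arrays with the drug lay below the 4 without it, a share near the 2.39% of all genes. The median became -0.43 when rapamycin array 1 was dropped, -0.04 for rapamycin array 2 and -0.16 for PD-0325901 array 2. The count of 5 moved in both directions with 1 array left out. Among genes whose mean lay above the median gene the count was 3 of 31 (4.77% of such genes lower).

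The main effect of rapamycin had a median of -0.32, with 41 of 41 genes lower (53.8% of all genes). At an unadjusted p under 0.05, 6 members were lower (Ccne1, Clspn, Ccne2, Lig1, Ung and Orc1), where 2.40% of all genes were. Ccne1 had -0.77 (SE 0.16, unadjusted p = 0.0028, limma adjusted p = 0.7523). It was the 1 of 41 members whose 4 arrays with rapamycin lay below the 4 without it, a share near the 1.94% of all genes. The count of 6 moved in both directions when 1 array at a time was left out. The median became -0.12 and -0.50 when rapamycin array 1 and 2 were dropped, and -0.21 for PD-0325901 array 1. For the interaction of the drugs, in which a positive value means that the combination was lower by less than the sum of the single differences, 33 of 41 genes were positive and 8 negative (48.2% of all genes), with a median of 0.19. No member reached an unadjusted p under 0.05 (0 of 41, against 2.18% of all genes in either direction), the smallest being Mcm6 with 0.59 (SE 0.29, unadjusted p = 0.0904, limma adjusted p = 0.9999). This median was -0.17 when rapamycin array 1 was dropped, 0.56 when rapamycin array 2 was, 0.35 for PD-0325901 array 1 and -0.02 for PD-0325901 array 2. In these 3 comparisons the adjusted count was 0 of 41 (0% of all genes).

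Within 2 of the groups the arrays differed in one direction for nearly all of the genes. Rapamycin array 1 was below rapamycin array 2 for 41 of 41 genes. Array 1 minus array 2 had a median of -0.81 and a range from -2.30 to 0.00. For 12 genes the 2 arrays differed by more than 1 log2 (7.01% of all genes). Over all genes the median of this difference was -0.01, and array 1 was the higher one for 48.0%. PD-0325901 array 1 was above array 2 for 38 of 41 genes (55.2% of all genes), with a median of 0.39. The combination pair had 27 genes higher (46.2% of all genes) and 14 lower on array 1, with a median of 0.08. The vehicle pair had 20 higher (53.3% of all genes) and 21 lower, with a median of 0.00. The spread between replicates was thus largest with rapamycin and smallest with both drugs and with vehicle, and 27 of the 41 genes had their lowest value on rapamycin array 1, as 16.6% of all genes did.

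**Figure D4:**
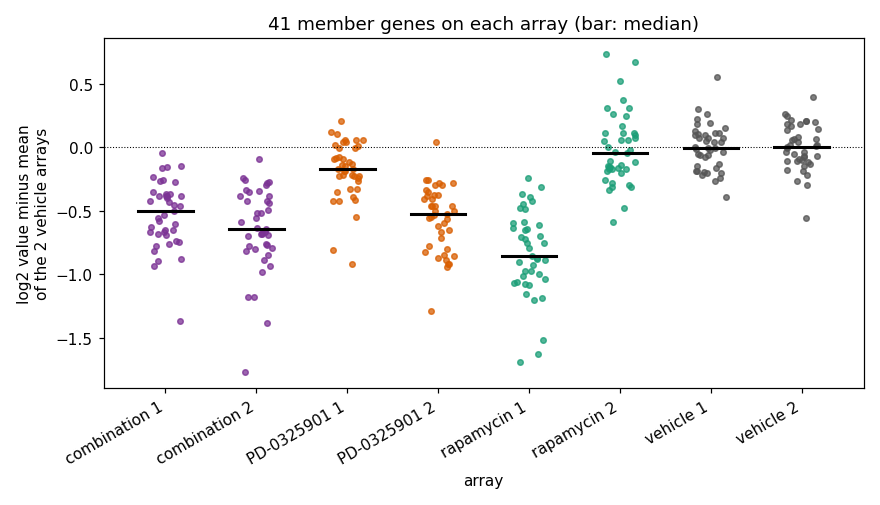
Log2 value of each of the 41 genes minus the mean of the 2 vehicle arrays, for every array (points; bar, median). The medians are -0.49 and -0.63 on the combination arrays, -0.17 and -0.53 on the PD-0325901 arrays and -0.85 and -0.04 on the rapamycin arrays.

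Markers of other cell types differed between the arrays of a group and between groups. Scores are the mean of the markers' log2 values, each centred on its mean over the 8 arrays. Adipocyte markers (5 of 5 measured) scored 2.43 on rapamycin array 1, against -0.37 on rapamycin array 2 and -0.62 to 0.11 on the others, and all 5 were highest on rapamycin array 1. Adipoq, a hormone made by fat cells, measured 10.26 there and 6.26 to 6.99 elsewhere. Mast cell markers (6 of 6) scored 1.40 on rapamycin array 1 and -0.46 on rapamycin array 2. They scored -0.49 and -0.12 with the combination and 0.26 and 0.42 with PD-0325901, against -0.56 and -0.45 with vehicle. Fibroblast markers (7 of 7) scored 0.72 and -1.06 on rapamycin arrays 1 and 2, and skeletal muscle markers (7 of 7) -0.96 and 1.81. Other pairs differed in these lists too. Fibroblast markers scored -1.25 and 0.68 on the vehicle arrays and -0.41 and 0.72 on the combination arrays. Skeletal muscle markers scored 0.18 and -0.87 with vehicle and -0.39 and 0.68 with the combination. The array with the lowest replication genes thus held the highest fat markers, and its partner the highest muscle markers. Their part in the replication values was not tested.

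T and NK cell markers and macrophage markers were mostly higher in the groups with PD-0325901, while other immune lists were mixed. T and NK cell markers (10 of 11 measured) scored 0.12 and 1.0 on the combination arrays, -0.07 and 0.57 on the PD-0325901 arrays and -0.63 and -0.60 on the rapamycin arrays, against 0.01 and -0.40 on the vehicle arrays. Macrophage markers (9 of 9) scored 0.33 and -0.10, 0.31 and 0.52, and -0.21 and -0.30 in the same groups, against -0.14 and -0.40 with vehicle. By mean, 9 of 10 T and NK cell markers and 7 of 9 macrophage markers were higher in the combination than with vehicle, and 10 of 10 and 9 of 9 were with PD-0325901. Of neutrophil markers 6 of 6 were higher with PD-0325901, but 4 of 6 were lower in the combination. Of B and plasma cell markers 3 of 5 were higher with PD-0325901 and 3 of 5 were lower in the combination. On PD-0325901 array 2, which had the lower replication values of its pair, the 4 measured of 9 erythroid markers scored 1.38 (others -0.32 to -0.05) and 6 neutrophil markers 1.03 (others -0.43 to 0.15). Klf1, of the erythroid list, was lower there than on array 1 (7.05 against 7.27). So was Ly6g, of the neutrophil list (6.38 against 6.58), while the other markers of both lists were higher. Endothelial markers (8 of 8) scored -0.35 and -0.25 with the combination, -0.42 and 0.11 with PD-0325901 and 0.60 and 0.17 with rapamycin, against 0.24 and -0.09 with vehicle. Of the remaining lists, B and plasma cell markers (5 of 6 measured) scored -0.41 to 0.46, pericyte and smooth muscle markers (6 of 6) -0.56 to 0.33 and epidermis markers (5 of 5) -0.13 to 0.16. Their part in the replication values was not tested.

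Of 39 further origin and fork genes, 33 were lower in the combination than with vehicle, with a median of -0.31, and 6 were lower at an unadjusted p under 0.05. Over all genes these shares were 53.7% and 4.0%, which apply to the next lists too. The median was -0.12 with PD-0325901 and -0.21 with rapamycin. From each list the 3 genes with the smallest PD-0325901 main effect p are given. Orc2, of the origin recognition complex, had a combination difference of -0.64 (SE 0.16), Pold3, of polymerase delta, -0.62 (SE 0.23), and Ticrr, which acts when origins fire, -0.87 (SE 0.32). Of 30 other S phase genes, 28 were lower, with a median of -0.54, 8 of them at an unadjusted p under 0.05. They include the purine synthesis enzyme Atic (-0.71, SE 0.15) and the histone binding protein Rbbp7 (-0.56, SE 0.19). Tk2, the mitochondrial thymidine kinase, differed the other way, with 0.57 in the combination (SE 0.11) and 0.67 with PD-0325901 (SE 0.11). At that p it was the single higher gene of the list in either comparison.

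Mitosis genes had a median of -0.39 in the combination, with 25 of 29 lower (53.7% of all genes), 5 of them at an unadjusted p under 0.05 (4.0% of all genes). Kif11, a motor of the spindle, had -0.66 (SE 0.21), Ttk, a kinase of the spindle checkpoint, -0.40 (SE 0.14), and Nuf2, of the kinetochore, -0.58 (SE 0.31). By array, the mitosis score ran beside that of the replication genes: 0.02 and -0.21 with the combination, 0.04 and -0.28 with PD-0325901 and -0.47 and 0.37 with rapamycin, against 0.22 and 0.30 with vehicle. The replication genes scored -0.18 and -0.30, 0.16 and -0.21, and -0.49 and 0.33 in the same groups, against 0.35 and 0.35 with vehicle. The 31 other E2F genes, pocket proteins, cyclins and CDK inhibitors had 18 lower and 13 higher in the combination, with a median of -0.13. At an unadjusted p under 0.05, 1 was lower (4.0% of all genes) and 3 were higher (1012 of 19938 genes). The combination and vehicle arrays did not overlap for 13 lower and 9 higher genes (4450 and 3561 of 19938 genes). With PD-0325901 alone 24 of the 31 were lower (median -0.15) and with rapamycin 19 (median -0.12). Myc, a transcription factor that drives growth and S phase entry, had a combination difference of -0.70 (SE 0.27), and Lin54 and Lin9, subunits of the complex that binds cell cycle promoters, had -0.46 (SE 0.20) and -0.26 (SE 0.17). Ccnd1, the D cyclin induced by ERK signalling and chosen after its values were seen, had -0.39 (SE 0.31). The genes named from this list were thus all lower, whereas 13 of the 31 were higher. No gene of these 4 lists passed the adjusted threshold in any of the 8 comparisons.

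**Figure D5:**
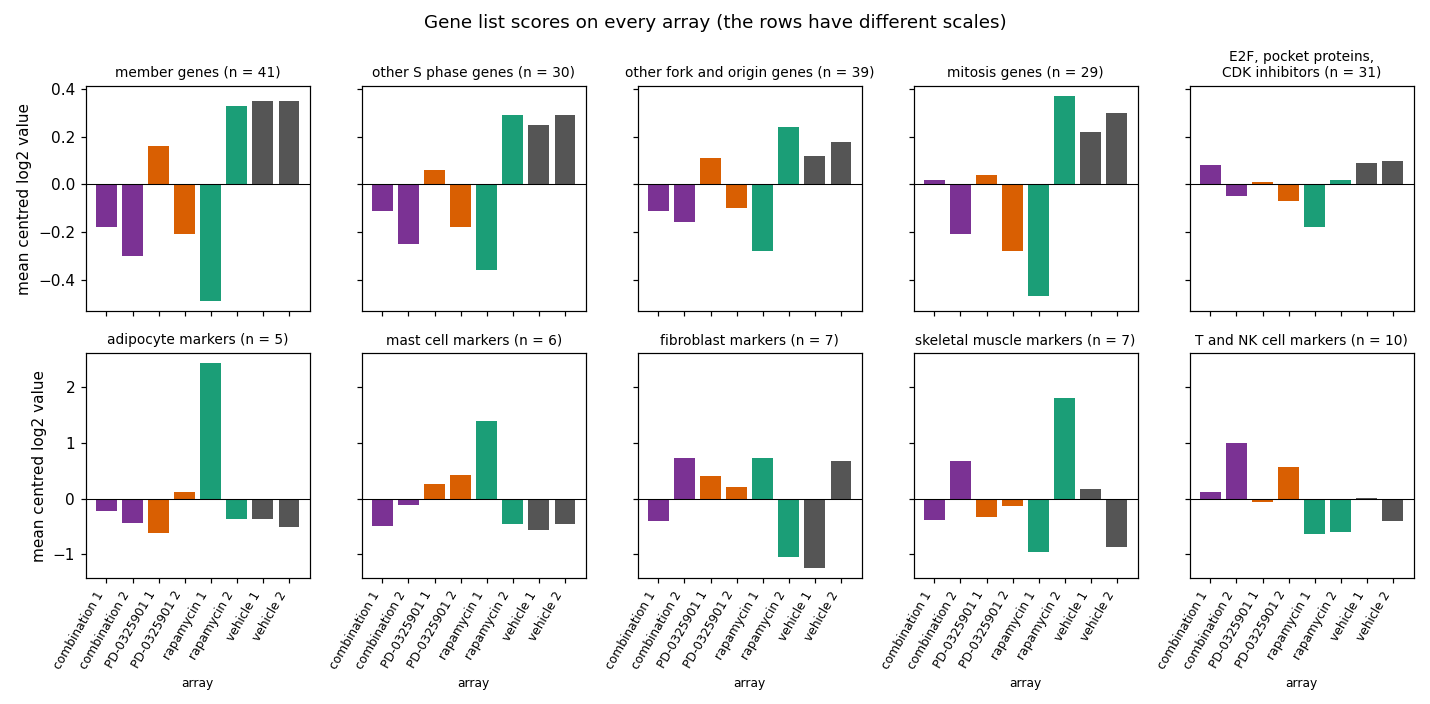
Score of each gene list on every array (bars, mean of centred log2 values), with cell cycle lists in the upper row and cell type markers in the lower row on a wider scale. Rapamycin array 1 has the lowest replication score (-0.49) and the highest adipocyte score (2.43), and the 2 vehicle arrays have replication scores of 0.35 and 0.35.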

How the data were processed

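Per the labels' protocols, tumour RNA was extracted with Trizol and cleaned with RNeasy, and biotin-labelled target was made with a NuGEN Applause kit. The authors deposited 1 log2 value per probe set and array, a unit read from the range (3.36 to 14.36). No source used here names the software, background correction or normalization. Of 35512 probe sets, 21789 are annotated to 1 gene symbol, which left 19938 genes, each read from its highest-mean probe set (3 of the 41 members had more than 1). Groups came from the sample titles. limma 3.58.1 in R 4.3.3 fitted the means of the 4 groups (lmFit and eBayes, 4 residual and 1.98 prior degrees of freedom) without a filter on low values, and the fit was tested on simulated data. An exact permutation test of 2 against 2 arrays cannot go below p = 0.333. The members, gene lists and marker lists were chosen with earlier results of these data known. By rule, values on every array were given for the 2 members of each role (3 in origin licensing and in polymerases, clamp and clamp loader) ranked first by p of the PD-0325901 main effect and for the members with the extreme differences from vehicle. Neighbouring genes were named by the 3 smallest such p per list. Ccne1, Pola1, Ccnd1 and the members given by differences alone were added after their values were seen. Alternatives were other normalizations, filters, priors, probe set rules, fits and leaving out each array.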

Additional observations from a re-analysis of the deposited data

How the results depend on the processing

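The median of the 41 genes kept its sign in each comparison with vehicle under every alternative run. Leaving out 1 array at a time moved the medians as follows: rapamycin against vehicle from -0.85 to -0.04, combination against rapamycin from -0.51 to 0.30 and the interaction from -0.17 to 0.56, in each case at the removal of a rapamycin array. At the removal of a PD-0325901 array, PD-0325901 against vehicle gave -0.53 to -0.17 and the combination against PD-0325901 -0.41 to -0.02. The number of members past the adjusted threshold stayed at 0 under every alternative (an adjusted p threshold of 0.1 included), except that it was 0 to 1 for rapamycin against vehicle when 1 array was left out. Counts of members lower at an unadjusted p, chosen after the adjusted counts were seen, moved most. Leaving out 1 array gave 0 to 8 for PD-0325901 against vehicle, 1 to 28 for rapamycin against vehicle, 2 to 22 for the combination against vehicle, 0 to 25 for the PD-0325901 main effect and 1 to 25 for the rapamycin main effect. With only the groups compared they were 5 for PD-0325901 (3.75% of all genes lower) and 24 for the combination (4.40%). Quantile normalization gave 6 for rapamycin (2.56%). Genes above the median level alone gave 1 for rapamycin (1.98% of such genes) and 3 for the PD-0325901 main effect (4.77%). Apart from quantile normalization, these fits hold fewer arrays or genes, and beyond that the cause was not tested. For the PD-0325901 main effect, leaving out 1 array gave -0.31 to 0.08 for Lig1, -0.51 to 0.01 for Rrm1, -0.35 to 0.05 for E2f2 and -0.30 to 0.25 for Cdt1. For the combination against vehicle it gave -0.57 to 0.02 for E2f2 and -0.77 to 0.34 for Cdt1. With the array number as a replicate block, 2 members were lower at an unadjusted p for PD-0325901 against vehicle (2.21% of all genes). For the combination 8 were (3.71% of all genes), and no adjusted call was made. Deviations of same-numbered arrays from their group means correlated from -0.28 to 0.18 across 6 pairs of groups. These values show no clear pairing by array number, but with 2 arrays per group they cannot exclude one. The number of arrays, not a depth, limits these values.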
